A study of Mus musculus with 2 samples.

Results

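Collagens are the main structural proteins of cementum, bone and the periodontal ligament, and each collagen chain is the product of its own gene. The genes described here are the protein-coding rows of the deposited count table whose symbol has the form of a collagen chain (Col, a type number, the letter a and a chain number). There were 44 such genes among 44792 rows, of which 23374 were protein-coding. The pattern leaves out Col4a3bp, which encodes a lipid transfer protein and no collagen chain.

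Both libraries came from wild-type OCCM-30, an immortalized mouse line with features of cementoblasts, which form the mineralized layer on tooth roots. The first library was made from cells put under compression, the second from control cells, and both were grown in DMEM with serum. How strong the force was, and how long it lasted, is not stated in the labels. With 1 library in each group, no ratio below has a replicate check, and the values compare these libraries and not the conditions.

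Collagen chains wind in threes into a triple helix, and the type decides what the helix builds. Fibrillar collagens are cut at both ends after secretion and pack side by side into fibrils, with type I as the bulk of cementum and bone fibrils and types III, V and XI mixed in. Network collagens keep their ends and join into sheets, FACIT collagens sit on the surface of fibrils, and the remaining types form beaded filaments, anchoring fibrils or membrane-bound chains. Of the 44 genes, 11 were fibrillar, 9 network-forming, 9 FACIT and 15 of other classes.

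The promoters below are shown for genes on which the results turn. Col1a2 and Col3a1 encode fibril chains that stood at different ratios, Col6a1, Col6a2 and Col6a3 encode the chains of type VI collagen and stood at nearly the same ratio, and Col4a5 and Col4a6 are neighbours read in opposite directions with unlike counts. Each sequence is the stretch before the RefSeq transcription start on build GRCm38.p6, 5′ to 3′ on the strand of the gene, without bases inside any RefSeq gene span. Capitals mark matches on either strand to TATAAA (core promoter box), CCAAT (bound by factor NF-Y), GGGCGG (bound by Sp1) or ACGTG (the core shared by hypoxia response elements and some E-boxes), none of which contains another.

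Col1a2 (chr6:4505368-4505617, plus strand): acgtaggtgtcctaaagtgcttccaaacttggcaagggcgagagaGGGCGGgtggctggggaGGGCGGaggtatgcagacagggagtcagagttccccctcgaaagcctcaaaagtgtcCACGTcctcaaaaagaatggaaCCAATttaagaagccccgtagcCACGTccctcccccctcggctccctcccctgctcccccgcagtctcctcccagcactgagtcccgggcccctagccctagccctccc
Col3a1 (chr1:45311288-45311537, plus strand): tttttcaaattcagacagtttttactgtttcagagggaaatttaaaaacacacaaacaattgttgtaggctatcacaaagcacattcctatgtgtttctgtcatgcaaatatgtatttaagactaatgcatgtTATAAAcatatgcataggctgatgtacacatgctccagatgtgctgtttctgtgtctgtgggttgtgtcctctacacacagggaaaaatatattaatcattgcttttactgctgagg
Col6a1 (chr10:76726045-76726294, minus strand): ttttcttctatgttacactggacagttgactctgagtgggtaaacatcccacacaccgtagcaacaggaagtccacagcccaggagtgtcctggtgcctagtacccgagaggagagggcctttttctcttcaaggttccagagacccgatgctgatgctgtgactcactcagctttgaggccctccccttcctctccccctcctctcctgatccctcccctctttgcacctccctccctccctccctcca
Col6a2 (chr10:76623631-76623880, minus strand): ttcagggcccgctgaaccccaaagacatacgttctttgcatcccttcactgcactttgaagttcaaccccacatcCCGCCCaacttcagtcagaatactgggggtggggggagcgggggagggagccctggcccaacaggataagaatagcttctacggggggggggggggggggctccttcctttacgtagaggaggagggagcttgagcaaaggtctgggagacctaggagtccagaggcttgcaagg
Col6a3 (chr1:90844002-90844221, minus strand): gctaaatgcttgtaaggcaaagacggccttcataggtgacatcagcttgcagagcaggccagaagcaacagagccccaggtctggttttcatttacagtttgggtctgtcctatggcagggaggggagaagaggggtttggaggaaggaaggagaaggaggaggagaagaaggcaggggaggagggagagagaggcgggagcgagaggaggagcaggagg
Col4a5 (chrX:141475169-141475369, plus strand): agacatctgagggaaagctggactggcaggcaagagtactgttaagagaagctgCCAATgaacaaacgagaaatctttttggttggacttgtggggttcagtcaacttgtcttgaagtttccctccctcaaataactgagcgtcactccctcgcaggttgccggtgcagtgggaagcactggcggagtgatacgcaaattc
Col4a6 (chrX:141474096-141474326, minus strand): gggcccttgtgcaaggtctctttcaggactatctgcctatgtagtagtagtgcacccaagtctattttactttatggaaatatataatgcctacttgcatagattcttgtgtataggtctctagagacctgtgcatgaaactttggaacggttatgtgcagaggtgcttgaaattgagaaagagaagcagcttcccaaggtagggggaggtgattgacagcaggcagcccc

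In these printed stretches Col1a2 had 1 match to CCAAT, 2 to GGGCGG and 2 to ACGTG. Col3a1 had 1 match to TATAAA, Col6a2 had 1 to GGGCGG, Col4a5 had 1 to CCAAT, and Col6a1, Col6a3 and Col4a6 had no match to any of these motifs. RefSeq windows were at hand for 35 of the 44 collagen genes (38 windows of 250 bases before the start). These windows can hold bases inside gene spans, which the printed stretches leave out. The Col4a5 and Col4a6 windows each had 1 match to GGGCGG, and the Col6a2 window that is not printed had 3. ACGTG was present in 5 of the 38 windows (13.2%), against 16.6% of all 32851 promoter windows of the same length. TATAAA was present in 13.2% against 12.4%, and CCAAT in 34.2% against 33.8%. GGGCGG was present in 22 of the 38 windows, 57.9% against 32.7%. A match is a run of letters and not a shown binding site.

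Library totals were 24296292 counts under compression and 25049919 in the control, and a count of 0 allows a level of up to 0.124 and 0.120 CPM (counts per 1000000 counts of the scaled library). Counts were scaled by trimmed mean of M-values (TMM) factors. Each ratio is compressed over control with 0.5 added to each count, and its range is an exact 95% interval for counting error alone. Of 7 cementoblast and osteoblast markers, 5 had a CPM of at least 1 in a library, with ratios from 0.787 to 1.10, while Ibsp was at 0 in both libraries and Bglap had 12 counts against 11. Chondrocyte markers matter here because types II, IX and XI are cartilage collagens. Periodontal ligament and fibroblast markers passed that minimum for 4 of 5 genes, with 5537 summed counts against 5914 and Tnmd at 0 in both. Of 5 chondrocyte markers, 2 passed it, Sox9 with 441 counts against 566 and Matn3 with 21 against 43, while Acan had 1 against 3, Comp 5 against 6 and Matn1 0 in both (468 summed counts against 618). Epithelial, endothelial and macrophage markers passed it for 5 of 14 genes, the highest being Cd68 at 6.18 and 5.71 CPM. The share of these lists in the collagen ratios was not tested.

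Collagen genes as a set were close to even between the libraries. A gene is called higher or lower below when 3 conditions hold: its CPM reached 1 in either library, its ratio was 2 or more (or 0.5 or less), and its interval left out 1. Of the 44 genes, 24 had a CPM of at least 1 in a library, 12 had counts below that minimum and 8 had 0 counts in both libraries. Among the 24, 1 gene was called higher (Col4a2) and 0 lower, beside 3.06% called higher and 0.929% called lower among all 14001 genes above the minimum. At a limit of 1.5-fold the same gene was past it upward and 0 downward, beside 7.31% and 3.71% of all genes. No p-value exists for a count of 0 with 1 library in each group.

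Most of the difference between collagen genes lay below these fold limits. The 24 genes had a median log2 ratio of 0.05, against -0.01 for all 14001 genes. Ratios were above 1 for 18 of the 24 and below 1 for 6, beside 6815 above and 7186 below among all 14001 genes. Of the 18, Col8a2 and Col6a4 had equal counts in both libraries, so their ratio of 1.03 comes from the scaling alone. Col1a1, Col1a2 and Col6a4 were below 1 with a loess fit, and Col4a5 was with DESeq2 size factors. Within 1.25-fold of even lay 17 of the 24 (70.8%, against 68.2% of all genes). The interval lay wholly above 1 for 14 of the 24 and wholly below 1 for 3, beside 26.3% and 28.6% of all genes. Narrow intervals follow from high counts, and 13 of the 24 had a mean of at least 1000 counts. Of those 13, the interval lay above 1 for 11 and below 1 for 1, beside 29.8% and 41.5% of the 5622 genes of at least that mean count. Outside the central 90% of all genes, at ratios from 0.684 to 1.71, lay Col4a2 above and Col7a1 below.

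**Figure D1:**
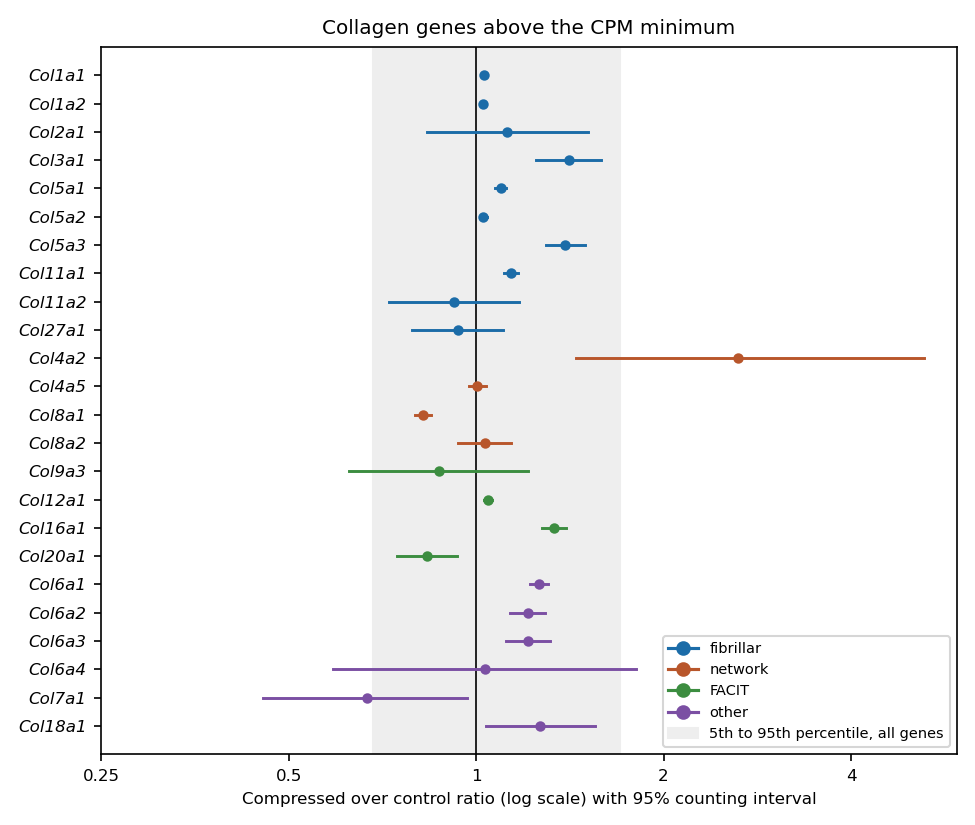
Ratio of the compressed over the control library (log scale) for the 24 collagen genes with a CPM of at least 1 in a library, coloured by class, with bars for the 95% counting interval and a grey band from the 5th to the 95th percentile of all genes. Points cluster near 1, Col4a2 lies to the right of the band at 2.63, and Col7a1 at 0.668 lies just left of it.

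Collagen transcripts made up nearly the same part of both libraries. The 44 genes together had 457129 counts under compression, 1.88% of the library (95% exact binomial interval 1.876 to 1.887), and 454534 in the control, 1.81% (1.809 to 1.82). Col1a1 and Col1a2 held 67.3% of collagen counts under compression and 67.9% in the control. With Col5a2, Col12a1 and Col5a1 they held 88.8% and 89.3%. Read counts grow with transcript length, and no transcript lengths were at hand, so levels are not compared between genes as numbers of molecules.

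**Figure D2:**
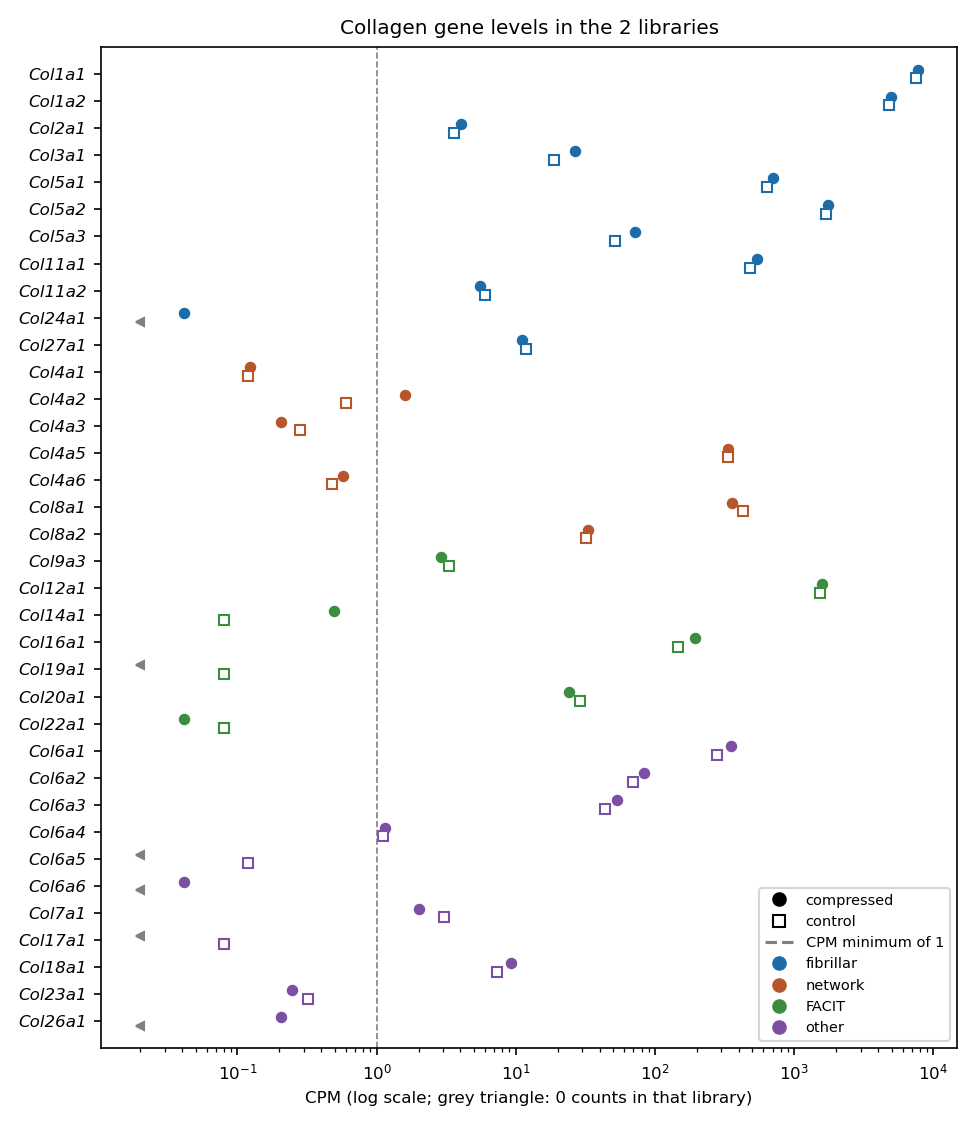
CPM on a log scale for the 36 collagen genes with a count in either library, filled circles for the compressed and open squares for the control library, coloured by class, with grey triangles for 0 counts and a dashed line at 1 CPM. The paired symbols nearly coincide for Col1a1, Col1a2, Col5a2, Col12a1 and Col4a5. They separate visibly for Col3a1, Col5a3, Col4a2 and Col14a1, higher under compression, and for Col7a1 and Col22a1, higher in the control.

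Type I collagen, the main fibre of cementum, was level between the libraries. Col1a1, on chromosome 11 at 94936224 to 94953042 (GRCm38), encodes its first chain and had 188419 counts under compression and 188837 in the control (7758 and 7535 CPM). By count it ranked 3rd of all genes in both libraries, and its ratio was 1.03 (1.02 to 1.04). Col1a2, on chromosome 6 at 4505618 to 4541543, encodes the partner chain and had 119396 counts against 120008, a ratio of 1.03 (1.02 to 1.03). Both genes have so many counts that the interval is narrower than the effect of scaling: with a loess fit of the ratio on abundance, both ratios were just below 1, at log2 values of -0.02 for Col1a1 and -0.01 for Col1a2. A direction is therefore not given for type I.

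The balance between the type I chains compares counts within a library, so a single scaling factor for each library does not alter it. Col1a1 had 1.58 counts for each Col1a2 count under compression and 1.57 in the control, and these differ by a factor of 1.003 (95% counting interval 0.993 to 1.013). The interval holds 1. With the loess fit, which corrects the chains by different amounts, the factor was 0.992.

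In the fibrillar class, Col3a1 and Col5a3 of the minor fibril collagens had the largest ratios. The minor chains Col5a2 and Col11a2 stood at 1.03 and 0.922. Col3a1, which encodes type III collagen, a fibre partner of type I in soft and healing tissue, had 648 counts under compression against 475 in the control (26.7 and 19.0 CPM). Its ratio was 1.41 (1.25 to 1.59), the highest of the 10 fibrillar genes above the minimum. Relative to Col1a1, Col3a1 counts were 1.37 times higher under compression (1.21 to 1.54), and 1.44 times with the loess fit. Col3a1 lies on chromosome 1 at 45311538 to 45349706, next to Col5a2, with 24624 bases between them in RefSeq.

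Type V collagen starts type I fibrils and limits their width, and its 3 chain genes did not share a ratio. Col5a3, the chain with the fewest counts, had 1738 against 1290 (71.6 and 51.5 CPM), a ratio of 1.39 (1.29 to 1.495). Col5a1 had 17086 counts against 16103, a ratio of 1.09 (1.07 to 1.12). Col5a2, the neighbour of Col3a1, had 42484 against 42690, a ratio of 1.03 (1.01 to 1.04). Col5a3 was thus higher under compression by the most and Col5a2 by the least. In counts per count of Col5a1, Col5a3 was 1.27 times higher under compression (1.18 to 1.37), and Col5a1 was 1.07 times higher relative to Col5a2 (1.04 to 1.09). A single scaling factor for each library leaves these count ratios as they are, while the loess fit, whose correction varies with abundance, gave 1.29 for Col5a3 over Col5a1 and 1.09 for Col5a1 over Col5a2.

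Type XI collagen replaces type V in cartilage fibrils and is also found in other tissues. Col11a1 had 13187 counts against 11960 (543 and 477 CPM), a ratio of 1.14 (1.11 to 1.17), and its counts per Col5a1 count were 1.04 times higher (1.01 to 1.07). Its partner Col11a2 had 134 counts in the compressed library and 150 in the control (ratio 0.922, 0.725 to 1.17), and Col2a1, the cartilage fibril chain, had 98 against 90, a ratio of 1.12 (0.835 to 1.51). The intervals of Col11a2 and Col2a1 hold 1, so these counts resolved no difference. Col27a1, a fibrillar collagen of cartilage, had 269 counts against 297, with a ratio of 0.935 (0.790 to 1.11), and Col24a1, linked to bone, had 1 count against 0. Of the 10 fibrillar genes above the minimum, 7 had an interval above 1 and 0 below 1, beside 26.3% and 28.6% of all genes. Among all genes with a mean of at least 1000 counts, these shares were 29.8% and 41.5%. The 7 include Col1a1 and Col1a2, whose ratios were just below 1 with the loess fit. The class median log2 ratio was 0.09.

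**Figure D3:**
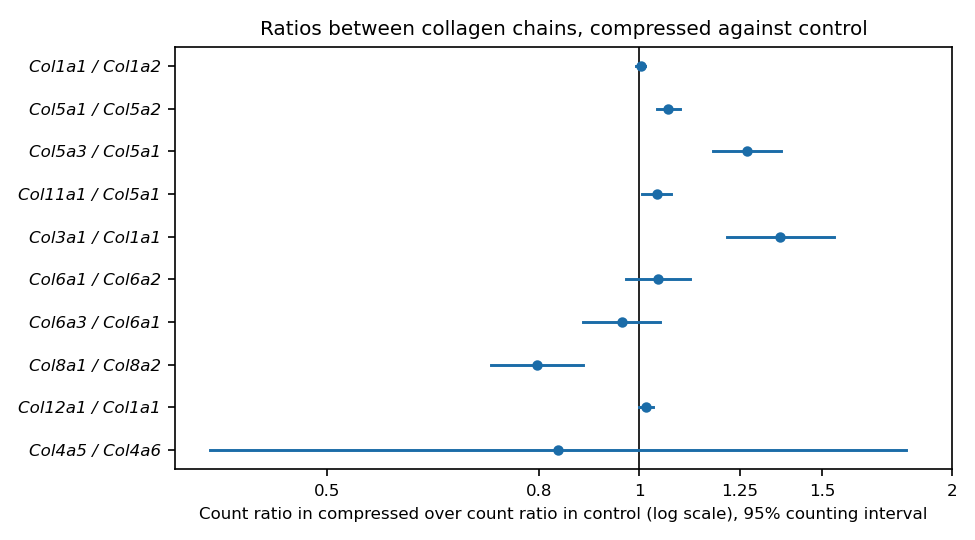
Count ratio between 2 collagen chains under compression divided by the same count ratio in the control (log scale), with bars for the 95% counting interval, for 10 pairs. Col1a1 over Col1a2 sits at 1.003, Col3a1 over Col1a1 at 1.37 and Col5a3 over Col5a1 at 1.27 lie to the right, Col8a1 over Col8a2 at 0.797 lies to the left, and Col4a5 over Col4a6 has a wide bar.

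Network collagens were uneven, with almost all type IV counts in 1 gene. Type IV collagen forms the sheet of basement membranes, and its 6 genes lie in 3 head-to-head pairs. Col4a5, on chromosome X at 141475370 to 141689236, had 8157 counts under compression and 8377 in the control (336 and 334 CPM), a ratio of 1.005 (0.975 to 1.04). Its neighbour Col4a6, whose RefSeq span ends 1274 bases away, had 14 counts against 12, too few to show a shift in the count ratio of the pair (0.835, 0.386 to 1.81). Known type IV trimers join the Col4a5 chain to those of Col4a3 and Col4a4 or to that of Col4a6, and these partners were near the floor in both libraries. Col4a3 had 5 counts against 7 and Col4a4, whose RefSeq span overlaps it by 114 bases on chromosome 1, had 0 in both.

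The usual type IV pair, Col4a1 and Col4a2, was barely present. Their RefSeq spans on chromosome 8 overlap by 85 bases at the start. Col4a1 had 3 counts in each library (0.124 and 0.120 CPM). Col4a2 had 39 counts under compression and 15 in the control (1.61 and 0.599 CPM), a ratio of 2.63 (1.45 to 5.24). It was the gene called higher, and it reached a CPM of 1 only in the compressed library, where it is higher. It was also called with no CPM minimum, but the call rests on few counts. At a CPM minimum of 5 Col4a2 is not counted, and 0 of 19 collagen genes were then called. Counts of overlapping genes are uncertain because no label says whether strand was used in counting.

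Type VIII collagen, a short-chain network collagen of vessel walls and the cornea, held the lowest ratio among abundant members. Col8a1, on chromosome 16 at 57624256 to 57754737, had 8615 counts under compression against 10813 in the control (355 and 431 CPM). Its ratio of 0.822 (0.799 to 0.846) lay below 1 under every scaling run, from 0.815 to 0.838. Its partner Col8a2 had 801 counts in each library, a ratio of 1.03 (0.934 to 1.14). Col8a1 counts per Col8a2 count were 10.8 under compression and 13.5 in the control, lower by a factor of 0.797 (0.720 to 0.882). Col10a1, the marker of hypertrophic cartilage, was at 0 in both libraries. The network class had 4 of 9 genes above the minimum and a median log2 ratio of 0.03.

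FACIT collagens split in direction. Col12a1, which encodes a chain on the surface of type I fibrils in ligament, had 38526 counts under compression and 38073 in the control (1586 and 1519 CPM), a ratio of 1.04 (1.03 to 1.06). Relative to Col1a1 it differed by a factor of 1.01 with an interval that holds 1 (0.999 to 1.03), and by 1.05 with the loess fit. Col16a1, a fibril-associated chain of connective tissue, was higher, with 4713 counts against 3648 (194 and 146 CPM) and a ratio of 1.33 (1.28 to 1.39).

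Col20a1, a FACIT gene of little-known function, was lower, with 582 counts against 720 and a ratio of 0.834 (0.747 to 0.932). Col9a3, a chain of cartilage type IX, had 70 counts against 83, with an interval that holds 1 (0.624 to 1.21), and its partners Col9a1 and Col9a2 were at 0 in both libraries. The 4 FACIT genes above the minimum had a median log2 ratio of -0.07, with 2 above 1 and 2 below 1, and 0.06 for the 3 genes left at a CPM minimum of 5. Below the minimum, Col14a1, a fibril-surface collagen of tendon and skin, had 12 counts against 2, a ratio of 5.16 on 0.5 added counts with an interval of 1.38 to 57.0. Col19a1 had 0 counts against 2 and Col22a1 1 against 2.

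Type VI collagen forms beaded filaments around cells from 1 chain of each of 3 genes, and all 3 stood above 1 at ratios near one another. Col6a1 had 8479 counts under compression and 6934 in the control (349 and 277 CPM), a ratio of 1.26 (1.22 to 1.30). Col6a2, also on chromosome 10, had 2040 against 1738, a ratio of 1.21 (1.14 to 1.29). Col6a3, on chromosome 1, had 1298 against 1104, a ratio of 1.21 (1.12 to 1.32).

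The 3 intervals overlap one another. Col6a1 over Col6a2 differed between the libraries by a factor of 1.04 (0.970 to 1.12) and Col6a3 over Col6a1 by 0.961 (0.882 to 1.05), so no shift between the chains was detectable at this depth. Across all scalings run, the 3 ratios stayed between 1.20 and 1.29. The chains that can stand in for Col6a3 were scarce, with 28 counts in each library for Col6a4, 0 against 3 for Col6a5 and 1 against 0 for Col6a6.

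The remaining collagens had few counts. Col18a1, a basement membrane collagen whose cleaved end is endostatin, had 225 counts against 183 (9.26 and 7.30 CPM), giving 1.27 as its ratio (1.04 to 1.55). Col7a1, which builds the anchoring fibrils of epithelia, had 49 counts against 76 (2.02 and 3.03 CPM), a ratio of 0.668 (0.455 to 0.965). Col7a1 stood at the 1.5-fold limit without passing it. It passed with DESeq2 size factors (log2 ratio -0.59) and with the loess fit (-0.65).

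Among transmembrane and other chains below the minimum, Col23a1 had 6 counts against 8, Col26a1 had 5 against 0 and Col17a1 had 0 against 2. Col13a1, Col15a1, Col25a1 and Col28a1 were at 0 in both libraries. The 6 genes of the other classes above the minimum, type VI included, had a median log2 ratio of 0.28. Of these, 4 were type VI genes, also with a median of 0.28. The remaining 2, Col18a1 and Col7a1, went opposite ways, at log2 ratios of 0.34 and -0.58. Of the 24 genes above the minimum, 10 overlap another RefSeq gene span. For 4 of these an overlapping gene had counts in the deposited table, with at most 4 counts in a library. The gene overlapping Col18a1 had 0 counts in both libraries. Genes overlapping Col5a1, Col16a1, Col20a1, Col2a1 and Col6a4 have no row in that table, so their reads are not known. The same holds for another gene over Col4a2 (18344 bases of overlap) and another over Col27a1 (8902 bases).

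The other genes of collagen production and use came from a list of 53, of which 43 were above the minimum. Their median log2 ratio was 0.09. Of the 43, 1 gene (2.33%) was called higher and 0 lower, beside 3.06% and 0.929% of all genes. Intervals lay above 1 for 20 (46.5%) and below 1 for 6 (14.0%), beside 26.3% and 28.6% of all genes. Narrow intervals follow from high counts, and shares for genes of like counts were not computed for this list. Past 1.5-fold higher stood 3 of the 43 genes (6.98%, beside 7.31% of all genes), namely Plod2, P4ha2 and P4ha1. Plod2, a lysyl hydroxylase that sets the type of crosslink in bone-like collagen, had 11459 counts under compression and 5778 in the control. Its ratio was 2.05 (1.98 to 2.11), and it was the gene called higher. P4ha2 and P4ha1, catalytic subunits of the prolyl hydroxylase that stabilizes the helix, had ratios of 1.89 (1.80 to 1.98) and 1.57 (1.51 to 1.63), while P4ha3 had 0.879 (0.828 to 0.932). Within the lysyl and glycosylation group, ratios of the 5 genes above the minimum ran from Fkbp10, a chaperone, at 1.10 (1.07 to 1.12) to Plod2.

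For the 8 genes of folding and export above the minimum, ratios ran from Tmem38b, an endoplasmic reticulum channel, at 0.921 (0.771 to 1.10) to the chaperone Rcn3 at 1.33 (1.27 to 1.41). Among the genes of propeptide cleavage above the minimum, Bmp1, the C-propeptide protease, had the highest ratio at 1.06 (1.02 to 1.11), and Tll2, a related protease, the lowest, with 14 counts against 27 (0.544, 0.259 to 1.06). The crosslinking enzymes above the minimum lay between Loxl4 at 0.951 (0.920 to 0.984) and Loxl3 at 1.11 (0.923 to 1.32).

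Receptors above the minimum lay between the collagen receptor kinase Ddr2 at 0.944 (0.925 to 0.962) and the uptake receptor Mrc2 at 1.12 (1.09 to 1.15). Breakdown enzymes above the minimum ran from Mmp9 at 0.699 (0.426 to 1.12) to Mmp13, a collagenase of skeletal tissue, at 1.402 (0.989 to 2.01), and both intervals hold 1. The Plod2 ratio of 2.05 stood beside collagen chain ratios of 1.03 for Col1a1 and 1.03 for Col1a2 in the same libraries.

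**Figure D4:**
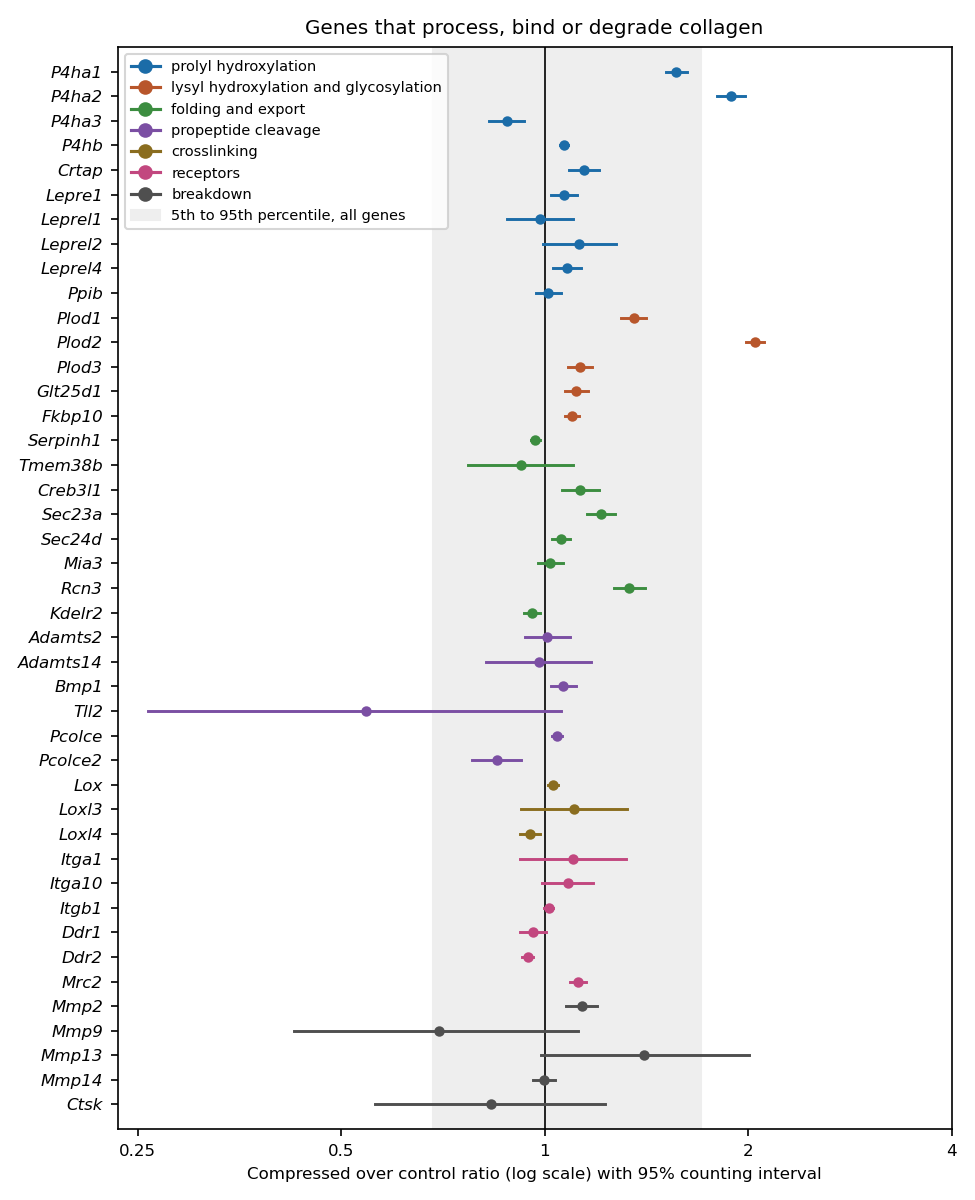
Ratio of the compressed over the control library (log scale) for the 43 listed genes of collagen processing, binding and breakdown above the CPM minimum, coloured by role, with bars for the 95% counting interval and a grey band from the 5th to the 95th percentile of all genes. Plod2 at 2.05 and P4ha2 at 1.89 lie to the right of the band, and Tll2, with a wide bar, lies to its left.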

How the data were processed

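The authors deposited 1 table of raw read counts, with a row for each gene, a column for each library and no normalization. The submitters' processing notes name HISAT2 and GRCm38. They name no counting tool or annotation, and nothing says how strand or multiply aligned reads were handled. Groups follow the treatment in the labels. Per the labels there is 1 sample in each group, which leaves edgeR no residual degrees of freedom, so no p-value was computed.

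TMM factors came from edgeR 4.0.16 in R 4.3.3 over all 44792 rows. Ratios used a prior count of 0.5, and their exact 95% conditional binomial (Clopper-Pearson) intervals come from the counts without it, in SciPy 1.17.1. Intervals between chains are normal approximations on the log scale. All cover counting error only, since reads are not independent molecules. Calls needed a CPM of at least 1 in a library. The call rule was tested on simulated data with counting error only, where changes were set only in genes of higher expected counts than Col4a2. That test cannot speak to differences between replicate cultures or to calls on few counts.

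Full values were given for the 5 fixed genes Col1a1, Col1a2, Col3a1, Col5a1 and Col12a1, the most abundant and the highest and lowest ratios of each class, genes past 1.5-fold, the head-to-head type IV genes and, in each role of the pathway list, the highest and lowest ratio. The count ratios between chains and the promoter motifs were chosen after the counts were seen. Members and lists were chosen with earlier results of these data known. RefSeq (GRCm38.p6) matched all 44 genes and gave positions and promoters. Alternatives were total-count scaling, DESeq2 1.42.0 size factors, upper-quartile factors, a loess fit with limma 3.58.1, no CPM minimum or one of 5, and a prior count of 5.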

Additional observations from a re-analysis of the deposited data

How the results depend on the processing

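Across the 7 alternatives the median log2 ratio ran from 0.04 to 0.06 for all collagen genes, 0.04 to 0.13 for fibrillar and 0.01 to 0.05 for network collagens. It ran from 0.27 to 0.31 for other collagens, which were mostly type VI genes, and from 0.08 to 0.11 for the pathway list. The FACIT median ran from -0.20 to 0.06, above 0 at a CPM minimum of 5. Under each alternative 0 collagen genes were called lower, beside 0.109% to 1.62% of all genes. With no CPM minimum, 2 of 36 collagen genes were called higher and 2 were past 1.5-fold higher (Col4a2 and Col14a1). Of all 22774 genes in that setting, 3.40% were called higher and 6.01% were past 1.5-fold higher. In the same setting 2 of 48 pathway genes were called higher (Plod2 and Itga11), and the FACIT median was -0.20. At a CPM minimum of 5, 0 collagen genes were called higher and 0 were past 1.5-fold higher, since Col4a2 is then not counted. Past 1.5-fold lower stood 1 of 24 collagen genes (Col7a1) with DESeq2 size factors and with the loess fit, beside 3.99% and 4.53% of all genes. The loess fit called 1 of 43 pathway genes lower (Tll2), beside 1.39% of all genes. The collagen share was 1.98% (compressed) and 1.90% (control) of protein-coding counts. It was 0.656% and 0.617% without the 10 most abundant genes of either library, which include Col1a1 and Col1a2. No paired analysis was possible because there is 1 library in each group. For the same reason no library could be left out. Depth limits the 20 genes below the minimum, where counts of 14 or fewer cannot show a moderate difference.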

Other observations

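Other secreted or membrane proteins carry a collagen-like stretch without being collagens. From a list of 33 such genes, chosen after the collagen counts were seen, 9 had a CPM of at least 1 in a library, with a median log2 ratio of 0.01. C1qtnf1, a secreted relative of adiponectin, had 2346 counts under compression against 1912 in the control, a ratio of 1.27 (1.19 to 1.35). Its relative C1qtnf6 had 2407 against 2460, a ratio of 1.01 (0.954 to 1.07). Scara5, a scavenger receptor that takes up ferritin, had 156 counts against 114, a ratio of 1.41 (1.10 to 1.81), while Colec12, a scavenger receptor with a lectin domain, had 401 against 486, a ratio of 0.852 (0.744 to 0.974). Emilin1, an elastic fibre glycoprotein, had 3556 against 3557. Colq, the collagen-tailed anchor of acetylcholinesterase, was the 1 gene of the 9 called lower, with 14 counts against 32 (0.460, 0.223 to 0.870). None was called higher, and of all genes 0.929% were called lower and 3.06% higher. Colq reached a CPM of 1 only in the control library (0.576 and 1.28 CPM), where it is higher, and its call rests on few counts. The genes C1qa, C1qb and C1qc, of complement, were at 0 in both libraries, as was Cthrc1, a gene of repair fibroblasts.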
